A study of Mus musculus with 21 samples.

Results

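The genes described here are the integrin and laminin subunits of mouse lung, taken by symbol as every Itga gene, every Itgb gene with a number, and every Lama, Lamb or Lamc gene with a number, except Itgax. The rule matched 36 of the 38924 gene symbols of the deposited count table. Of the 36 genes, 25 encode integrin subunits and 11 encode laminin chains. Of the 25 integrin genes, 7 encode subunits found mainly on leukocytes (Itgal, Itgam, Itgad, Itgae, Itga4, Itgb2 and Itgb7) and 18 encode subunits of matrix-binding integrins. All 36 had enough counts to be tested.

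Integrins are cell surface receptors made of an alpha and a beta subunit, and the pairing sets which ligand is bound. Matrix-binding integrins attach cells to collagens, fibronectin and laminins, whereas the β2 and β7 integrins and α4 integrins let leukocytes hold on to vessel walls and to other cells. Laminins are secreted trimers of an alpha, a beta and a gamma chain that form the sheet of the basement membrane. In the lung they lie under the alveolar epithelium and around capillaries and muscle, and integrins that contain the α3, α6 or α7 subunit are among their receptors.

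RNA was sequenced from female A/J mice 22 weeks after treatment, in 7 groups of 3 libraries. Control mice received vehicle. NNK mice received the tobacco carcinogen NNK as 1 intraperitoneal dose of 100 mg/kg. LPS mice received bacterial lipopolysaccharide into the nose weekly, 5 µg in 50 µL per mouse, without NNK, and NNK_LPS mice received both, with LPS beginning 1 week after NNK. The Sil, I3C and Sil_I3C groups also received NNK and LPS, with silibinin, indole-3-carbinol or both in the diet at 20 µmol/g each. All groups share strain and sex. Per the labels, the 5 groups given NNK were represented by lung tumours, dissected out and pooled over 3 mice in each group, and Control and LPS by normal lung, so NNK and tumour tissue cannot be told apart. The labels do not tie single libraries to single mice, so p-values measure the spread between libraries only, which may be technical.

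Libraries held 13305504 to 25276293 counts in all. Levels are given as CPM, the usual depth-scaled count, for which each count was divided by its library total times the TMM factor. By title order and by mt-Atp8 counts over those of mt-Atp6, the libraries fell into 3 sets that the labels do not explain. Control, NNK, LPS 1 and LPS 2 had ratios of 0.0206 to 0.0236, LPS 3, NNK_LPS, Sil and I3C 1 had 0.0782 to 0.0876, and I3C 2, I3C 3 and Sil_I3C had 0.117 to 0.135. NNK and Control, and Sil and NNK_LPS, were thus each in 1 set. LPS 3 was the only link between the set of Control and the set of NNK_LPS. Calls of subunits between those groups are given with and without a term for the set. Alveolar type 2 markers such as Sftpc were high in every group, with summed levels from 15750 CPM in LPS 3 to 57820 CPM in NNK_LPS 2 among the 4 groups without dietary agents, and no marker of lung, vessel, muscle or blood cell lists was at 0 throughout a group.

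A gene was called higher or lower at an edgeR adjusted p under 0.05 over all 15770 genes tested. In LPS lung against Control lung, 21 of the 36 subunits were called, 13 higher and 8 lower, where 50.0% of all genes tested were called, 25.3% higher and 24.7% lower. With a term for the library set, 19 were called there, 10 higher and 9 lower. NNK tumours against Control gave 8 calls, 5 higher and 3 lower, against backgrounds of 13.1%, 6.46% and 6.63%. NNK_LPS tumours against Control gave 14 calls, 5 higher and 9 lower, against 24.6%, 12.0% and 12.6%. Leaving out 1 library left 17 to 19 calls in LPS, 12 to 16 in NNK_LPS and 2 to 8 in NNK, where 2 were left without Control 2, 3 without NNK 1, 4 without NNK 3 and 5 without Control 1. Since so many genes were called, these counts are no result about the family, and the members are described one by one. Over all 36 subunits the median log2 fold change was 0.31 in LPS, 0.15 in NNK and -0.05 in NNK_LPS, each against Control, beside -0.02 over all genes tested in each.

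**Figure D1:**
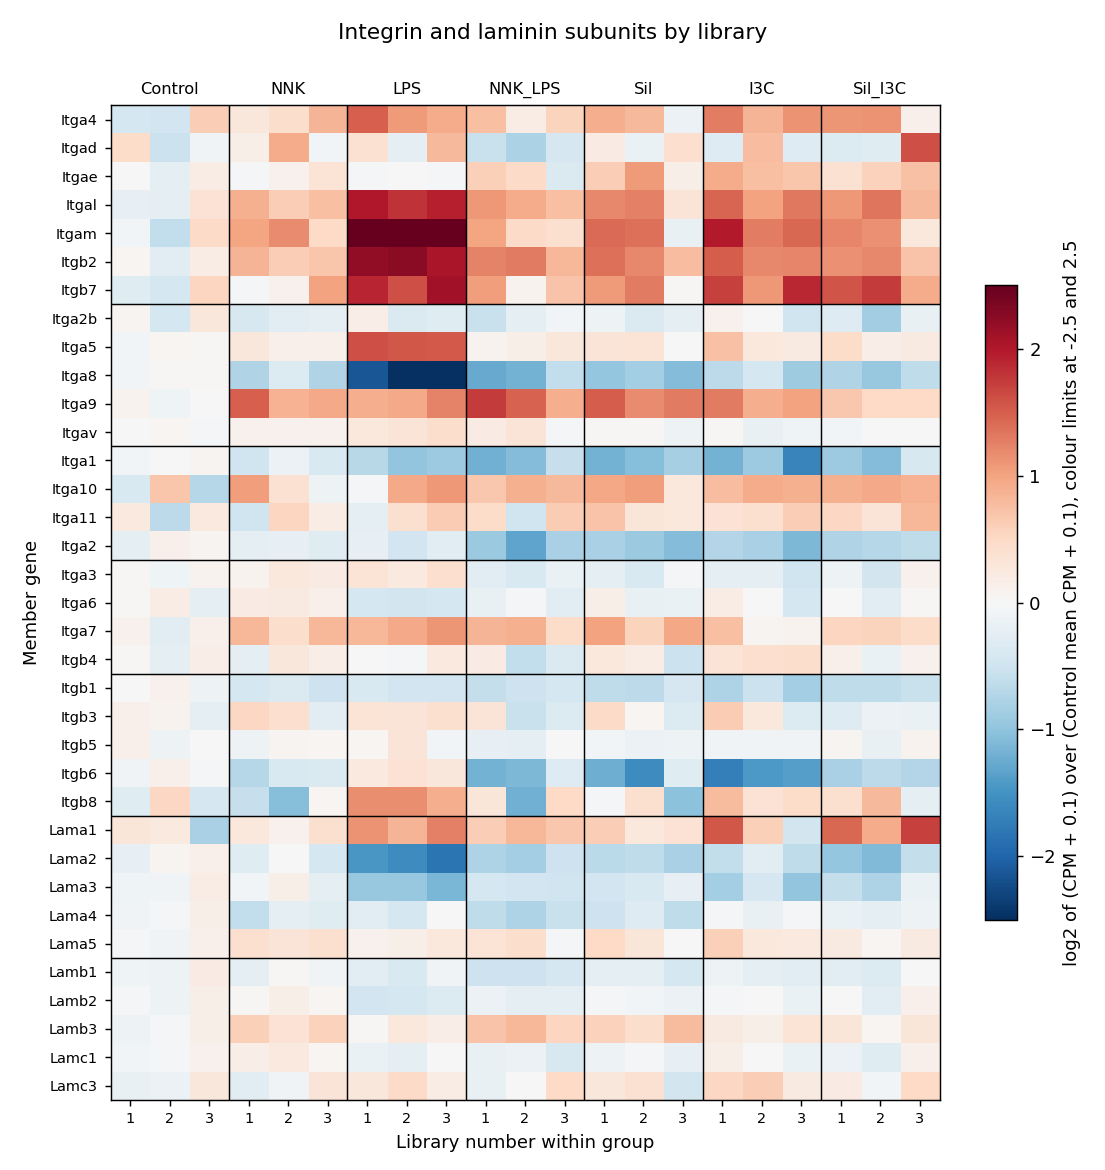
Each row is 1 subunit and each column is 1 of the 21 libraries, ordered by group. Colour gives log2 of CPM (plus 0.1) over the Control mean, limited at 2.5 in each direction. Of the leukocyte rows at the top, Itgam is darkest red in the 3 LPS libraries while Itgad and Itgae are pale. Over all rows, Itga8 and Lama2 are the darkest blue in those libraries.

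Levels in untreated lung can be compared between genes only per length. On the scale of CPM per kb of exon, Itgb1 stood far above the others in Control at 270.6 ± 21.6 (SD, n = 3). Itgb1 encodes the β1 subunit, which pairs with most matrix-binding alpha subunits. Itga3 followed at 50.5 ± 3.45, Itga8 at 46.9 ± 1.78, Itgb2 at 45.0 ± 7.10 and Lamb2 at 41.2 ± 3.98, and each of these overlapped with the next in its libraries. Lama3, a laminin chain, had 30.8 ± 3.62 CPM per kb. At the lower end were Itgb8 at 0.230 ± 0.0913, Itga10 at 0.197 ± 0.119, Lama1 at 0.137 ± 0.0551 and Itgad at 0.0924 ± 0.0394 CPM per kb. Those lowest genes rest on few reads. Part of the exonic sequence of Itga10 (33.5%) and of Itgad (19.7%) overlaps other annotated genes.

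Most leukocyte integrin genes rose in LPS lung. Of 7 subunits, 5 were called higher and none lower, where 25.3% of all genes were called higher and 24.7% lower. Their median log2 fold change was 1.89, beside -0.02 over all genes tested. Itgam, the αM subunit of Mac-1 on neutrophils and macrophages, had 17.3, 11.9 and 25.3 CPM in the 3 Control libraries and 287, 254 and 313 CPM in the LPS libraries. The LPS libraries all lay an order of magnitude above Control, and the log2 fold change was 3.97 ± 0.41 (SE; edgeR adjusted p = 1.17e-06). Itgam lies at chr7:128062640-128118491 on the plus strand (GRCm38, the mm10 assembly, with GENCODE vM21 annotation). In that annotation 68.7% of its exonic bases are shared with the model Gm49368 on the same strand, which is no row of the count table.

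Itgb2, the β2 subunit that pairs with αL and αM, had 142, 113 and 156 CPM in Control and 638, 655 and 567 CPM in LPS. The groups lay far apart, and the log2 fold change was 2.18 ± 0.17 (SE; edgeR adjusted p = 5.12e-08). Itgal, the αL subunit of LFA-1, which binds ICAM molecules, had 69.0, 66.9 and 102 CPM in Control and 318, 276 and 304 CPM in LPS, a log2 fold change of 1.92 ± 0.22. Itgb7, the partner of α4 and αE on lymphocytes, had 16.9, 15.4 and 30.0 CPM in Control and 77.9, 64.0 and 89.1 CPM in LPS, a log2 fold change of 1.89 ± 0.38. Itga4, the α4 subunit that binds VCAM-1 and is also found outside leukocytes, rose by 1.18 ± 0.34, from 29.3, 28.3 and 60.9 CPM to 111, 83.0 and 75.2 CPM. In Itgb7 and Itga4, as in Itgam, Control 3 was the highest Control library and still lay below every LPS library. These 5 calls were kept on leaving out any 1 library.

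The other leukocyte alpha subunits did not pass the test in LPS lung. Itgae, the αE subunit of epithelium-resident T cells and some dendritic cells, had 14.8, 12.7 and 17.0 CPM in Control and 14.4, 14.9 and 14.3 CPM in LPS. The groups overlapped almost completely. Itgad, the αD subunit, stayed below 1 CPM in all Control and LPS libraries. On the per-kb scale the ratio of Itgam to Itgal was 0.232 to 0.328 in Control and 1.18 to 1.35 in LPS, while the ratio of Itgal to Itgb2 was 0.225 to 0.303 and 0.195 to 0.249. The first ratio did not overlap between the groups, and with 3 libraries against 3 the smallest p of a two-sided exact permutation test is 0.10, so no p is given for ratios. Ptprc, the pan-leukocyte marker CD45, had 114 to 195 CPM in Control and 334 to 432 CPM in LPS, and the summed neutrophil markers had 30.1 to 89.7 and 773 to 977 CPM. In tissue RNA, more cells of a type and more RNA per cell cannot be told apart.

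**Figure D2:**
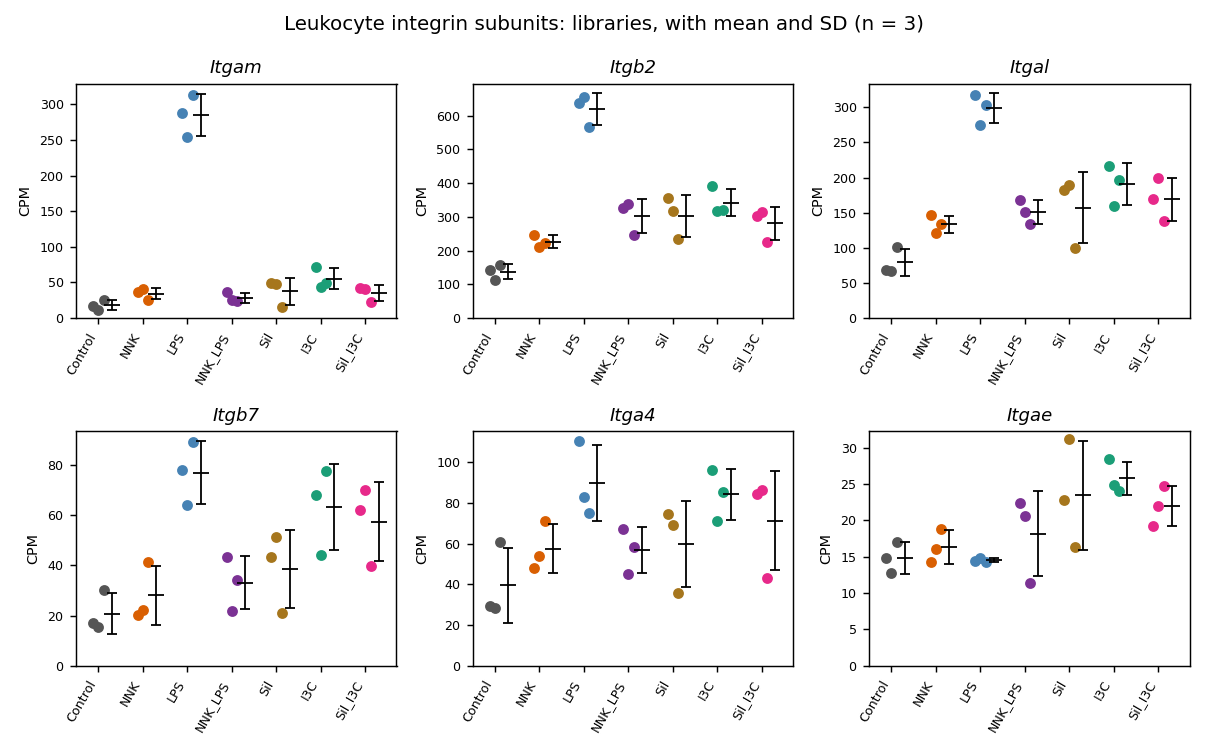
CPM of 6 leukocyte integrin subunits in each library (points, by group) with the mean and SD of 3 libraries beside them. The LPS points of Itgam, between 254 and 313 CPM, lie above every other library, while those of Itgae, 14.3 to 14.9 CPM, lie within the Control range.

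Tumours held far less Itgam than LPS lung. NNK tumours had 36.1, 41.1 and 25.8 CPM and NNK_LPS tumours 36.1, 25.2 and 23.8 CPM, and neither group was called against Control. All NNK libraries still lay above Control (log2 fold change 0.92 ± 0.38, edgeR adjusted p = 0.12), while NNK_LPS overlapped with it. Itgb2 was called higher in both kinds of tumour. It had 247, 209 and 223 CPM in NNK (log2 fold change against Control 0.72 ± 0.17) and 325, 338 and 245 CPM in NNK_LPS (1.14 ± 0.17). Itgal likewise had 146, 122 and 133 CPM in NNK (0.76 ± 0.21) and 168, 151 and 133 CPM in NNK_LPS (0.93 ± 0.21). All tumour libraries of both genes lay above all Control libraries. The NNK calls were not firm. Without Control 2, Itgb2 had a log2 fold change of 0.63 (edgeR adjusted p = 0.0679) and Itgal 0.67 (edgeR adjusted p = 0.116), Itgb2 was also lost without NNK 1, and Itgal without Control 1, NNK 1 or NNK 3. Ptprc was 174 to 206 CPM in NNK and 172 to 209 CPM in NNK_LPS. Summed neutrophil markers were 69.7 to 508 CPM in NNK, with NNK 3 within the Control range, and 47.9 to 195 CPM in NNK_LPS. Against Control, all 4 were called higher in NNK and 0 in NNK_LPS, where 6.46% and 12.0% of all genes were. Their part in the Itgam values was not tested.

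Promoter sequence is shown for 3 integrin alpha genes, as examples of a leukocyte subunit and of the matrix-binding subunits that rose and fell most in LPS lung. The sequences are the 250 bases before the RefSeq start site, read 5′ to 3′ on the gene's strand from GRCm38.p6, and capitals mark the GAGGAA core of PU.1 sites on either strand (TTCCTC on the other).
Itgam (chr7:128062390-128062639, plus strand): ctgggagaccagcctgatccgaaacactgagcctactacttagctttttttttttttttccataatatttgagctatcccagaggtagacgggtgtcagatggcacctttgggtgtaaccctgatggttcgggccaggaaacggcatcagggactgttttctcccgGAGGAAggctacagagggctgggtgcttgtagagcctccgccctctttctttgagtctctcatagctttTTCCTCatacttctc
Itga5 (chr15:103366792-103367041, minus strand): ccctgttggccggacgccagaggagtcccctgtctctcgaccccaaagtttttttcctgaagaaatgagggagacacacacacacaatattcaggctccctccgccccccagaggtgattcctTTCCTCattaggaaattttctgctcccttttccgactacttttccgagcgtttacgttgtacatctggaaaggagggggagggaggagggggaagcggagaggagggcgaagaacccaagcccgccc
Itga8 (chr2:12301945-12302194, minus strand): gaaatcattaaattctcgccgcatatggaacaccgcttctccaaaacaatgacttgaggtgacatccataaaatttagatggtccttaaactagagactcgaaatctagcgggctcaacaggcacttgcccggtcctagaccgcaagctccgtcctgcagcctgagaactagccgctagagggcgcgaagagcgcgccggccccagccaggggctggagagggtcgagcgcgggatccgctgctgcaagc
Itgam holds 2 of these cores, at 84 and 15 bases before the start site, Itga5 holds 1 at 127 bases before it, and the Itga8 window holds none. The search covered 25 RefSeq promoters of 22 of the 36 members. Lama3 was among the members not searched, so the member counts describe these 22 only. Of the 25 promoters, 13 (52%) hold the core in this window, as do 23.3% of 32851 promoters of the same length. The 13 include laminin and matrix-binding integrin genes such as Lama2 and Itgb1. Itgam is the only leukocyte subunit among them. Itga4 and Itgb7 hold no core there, and Itgal, Itgb2, Itgae and Itgad had no promoter to search. None of the 25 holds the AP-1 letters TGANTCA (6.75% of all promoters) or the NF-kB letters, GGG and TTTCC with any 2 bases between them (1.41%), and 2 of 25, those of Itgb6 and Lama2, hold a CArG box (1.47% of all). These are matches of letters and say nothing of binding. The RefSeq start site was found in a GENCODE vM21 transcript of the gene for 23 of the 25 member promoters. Itga5 and Itga8 were the exceptions, so their windows and positions rest on RefSeq alone.

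Among alpha subunits that bind RGD motifs and related sites, LPS lung showed opposite changes in the α5 and α8 genes. Itga5 encodes the α5 subunit of the main fibronectin receptor and lies at chr15:103344286-103366763 (minus strand). It had 40.2, 43.7 and 43.2 CPM in Control and 129, 124 and 122 CPM in LPS. The libraries of each group were tight, and the log2 fold change was 1.56 ± 0.12 (SE; edgeR adjusted p = 4.17e-08). In NNK tumours Itga5 had 51.7, 46.1 and 46.1 CPM and in NNK_LPS tumours 45.3, 46.8 and 51.9 CPM, and neither was called against Control.

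Itga8 encodes the α8 subunit, which pairs with β1 and binds nephronectin and is known from lung interstitial cells. It lies at chr2:12106632-12301922 (minus strand). Its level was 330.3, 354 and 352 CPM in Control and 77.9, 59.2 and 47.1 CPM in LPS. That gap was the deepest fall of any member in LPS lung (log2 fold change -2.49 ± 0.19, edgeR adjusted p = 4.17e-08), and LPS 3, from the other library set, was the lowest. Without LPS 3 the log2 fold change was -2.32. The per-kb ratio of Itga5 to Itga8 was 0.182 to 0.184 in Control and 2.47 to 3.88 in LPS. Npnt, the gene of nephronectin, fell too, from 808, 966 and 931 CPM to 296, 259 and 257 CPM (log2 fold change -1.74 ± 0.13). In tumours Itga8 had 205, 272 and 206 CPM with NNK and 145, 152 and 225 CPM with NNK_LPS. All 6 tumour libraries lay between Control and LPS lung. The change against Control was -0.60 ± 0.18 in NNK, lost on leaving out any Control library, NNK 1 or NNK 3 (without NNK 1, -0.52 with edgeR adjusted p = 0.155), and -0.99 ± 0.18 in NNK_LPS.

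Itga9, whose α9 subunit binds tenascin C and VCAM-1 among others, was higher in every treated group described so far. Its levels were 54.7, 47.4 and 51.7 CPM in Control, 146, 94.0 and 99.3 CPM in NNK, 96.6, 98.5 and 122 CPM in LPS, and 173, 142 and 96.1 CPM in NNK_LPS. Every library of these 3 groups lay above Control, though the tumour libraries spread widely. The log2 fold changes against Control were 1.14 ± 0.19, 1.04 ± 0.19 and 1.42 ± 0.19, and each was kept on leaving out any 1 library. Itgav, the αv subunit that pairs with several betas and takes part in activating TGF-β, rose modestly in LPS, from 76.3 to 81.6 CPM in Control to 94.8 to 106 CPM (0.35 ± 0.08). Itga2b, the αIIb subunit of platelets, stood at 2.87 to 6.52 CPM over all 21 libraries and was called in no comparison.

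**Figure D3:**
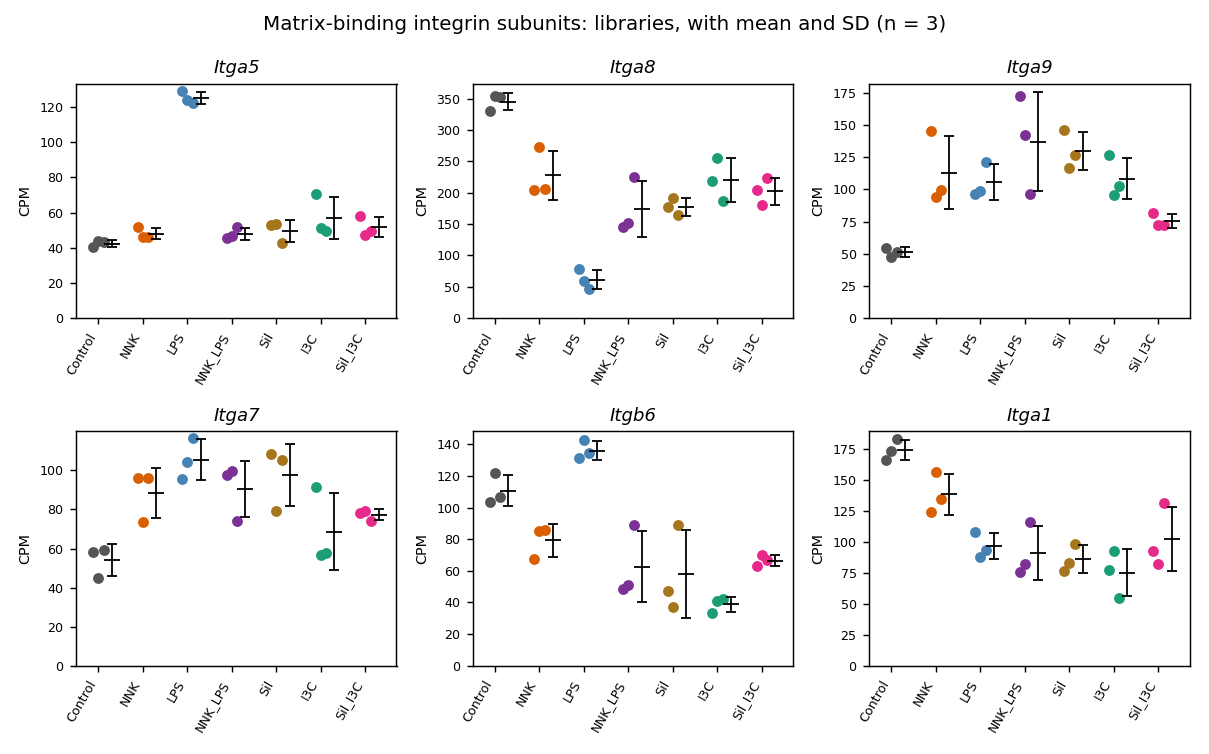
CPM of 6 matrix-binding integrin subunits in each library (points, by group) with the mean and SD of 3 libraries. Itga5 is high in LPS alone (122 to 129 CPM), Itga8 is lowest there (47.1 to 77.9 CPM), and Itga9 lies above Control (47.4 to 54.7 CPM) in all 6 other groups.

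The collagen-binding alpha genes that were called were all lower. Itga1, the α1 subunit, had 166, 173 and 183 CPM in Control, 108, 87.7 and 93.0 CPM in LPS, and 75.7, 81.7 and 116 CPM in NNK_LPS. The groups did not overlap with Control, and the log2 fold changes were -0.85 ± 0.20 and -0.93 ± 0.20. NNK tumours lay between, at 124, 156 and 134 CPM, and were not called. Itga2, the α2 subunit, had 35.4, 44.9 and 43.5 CPM in Control, 34.7, 35.6 and 33.5 CPM in NNK, and 21.8, 16.5 and 23.6 CPM in NNK_LPS. All NNK_LPS libraries lay below those of Control and NNK (log2 fold change against Control -1.0 ± 0.13, edgeR adjusted p = 1.59e-04). LPS lung, at 35.7, 29.6 and 34.0 CPM, overlapped with Control, and its call (-0.32 ± 0.13) was lost without Control 2, Control 3, LPS 3 or LPS 2 (without the last, -0.24 with edgeR adjusted p = 0.17). It was also lost with the set term (-0.34 ± 0.15, edgeR adjusted p = 0.0743) and with no filter on low counts. Itga10 and Itga11, which encode α10 and α11, stayed below 6 CPM in every library and were called in no comparison.

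The laminin-binding alpha genes moved apart from each other. Itga7, the α7 subunit best known from muscle, had 58.3, 44.8 and 59.3 CPM in Control, 95.9, 73.8 and 96.0 CPM in NNK, 95.8, 105 and 116 CPM in LPS and 97.6, 99.8 and 74.2 CPM in NNK_LPS. It was higher than Control in all 9 libraries, by 0.71 ± 0.18, 0.96 ± 0.18 and 0.74 ± 0.18 on the log2 scale. The NNK call was lost without Control 2 (0.62, edgeR adjusted p = 0.0951), NNK 1 or NNK 3. Over the same libraries the summed markers of heart muscle, which can be carried along with lung, went the other way: 464 to 498 CPM in Control, 105 to 226 in NNK, 82.6 to 120.3 in LPS and 76.2 to 142 in NNK_LPS, while smooth muscle markers were 419.6 to 465, 293 to 464, 255 to 288 and 181 to 432 CPM. Their part in the Itga7 values was not tested.

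Itga3, the α3 subunit of epithelial laminin receptors, had 294, 267 and 305 CPM in Control and 365, 339.5 and 387 CPM in LPS (log2 fold change 0.33 ± 0.12). The call was lost without Control 1, LPS 1, LPS 3 or Control 2 (without the last, 0.29 with edgeR adjusted p = 0.101), and with the set term (0.29 ± 0.14, edgeR adjusted p = 0.116). Itga6, the α6 subunit that pairs with β1 or β4, fell in LPS from 119.5, 133 and 98.7 CPM to 85.9, 85.2 and 86.8 CPM (-0.45 ± 0.14), a call lost without Control 2 (-0.33, edgeR adjusted p = 0.0794). Itgb4, the β4 subunit of hemidesmosomes, which anchor epithelium to the basement membrane, had 16.5 to 34.4 CPM over the 21 libraries and was called in no comparison.

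Of the 5 other matrix-binding beta genes, Itgb1 was lower in each of the 3 treated groups. It had 1111, 1189 and 1013 CPM in Control, 814, 854 and 773 CPM in NNK, 846, 792 and 792 CPM in LPS and 731, 774 and 818 CPM in NNK_LPS. The Control libraries lay above all others, and the log2 fold changes were -0.44 ± 0.09, -0.45 ± 0.09 and -0.51 ± 0.09. The NNK call was lost without Control 2 (-0.36, edgeR adjusted p = 0.065). Itgb6, the epithelial partner of αv, had 104, 122 and 107 CPM in Control, 131, 143 and 134 CPM in LPS, where it was not called, and 48.6, 50.8 and 88.7 CPM in NNK_LPS. NNK_LPS 3 lay apart from the other libraries of its group, and the call against Control (-0.82 ± 0.25) was lost on leaving out any Control library, NNK_LPS 1 or NNK_LPS 2 (without NNK_LPS 1, -0.62 with edgeR adjusted p = 0.143).

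Itgb8, another partner of αv, rose in LPS from 2.05, 3.70 and 1.87 CPM to 5.81, 5.80 and 4.85 CPM (1.10 ± 0.43). That call was lost on leaving out Control 1, Control 3 or any LPS library (without Control 3, 0.93 with edgeR adjusted p = 0.129), and with the set term (1.18 ± 0.49, edgeR adjusted p = 0.0634). Itgb3, of platelets and vessels, and Itgb5, another partner of αv, ran from 24.9 to 56.6 CPM and from 89.3 to 131 CPM over the 21 libraries and were called in no comparison. Over the 18 matrix-binding integrin genes, 6 were called higher and 5 lower in LPS lung, 2 and 2 in NNK tumours, and 2 and 5 in NNK_LPS tumours, each against Control. The shares of all genes called higher and lower were 25.3% and 24.7% in LPS, 6.46% and 6.63% in NNK, and 12.0% and 12.6% in NNK_LPS. The median log2 fold changes over the 18 genes were 0.31, 0.10 and -0.15, beside -0.02 over all genes tested in each.

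Among laminin alpha chains, 3 fell in at least 1 comparison with Control. Lama2, the α2 chain of muscle and interstitial basement membranes (chr10:26980036-27619758, minus strand), had 75.6, 90.6 and 94.3 CPM in Control and 31.8, 29.0 and 24.4 CPM in LPS. The groups lay well apart, and the log2 fold change was -1.61 ± 0.15 (SE; edgeR adjusted p = 3.17e-07). In NNK_LPS it had 50.8, 48.0 and 60.8 CPM (-0.71 ± 0.15), and in NNK 70.0, 86.2 and 64.2 CPM, which overlapped with Control and was not called.

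Lama3, the α3 chain of epithelial basement membranes, had 306, 311 and 376 CPM in Control and 172, 171 and 149.8 CPM in LPS (log2 fold change -1.01 ± 0.15). NNK tumours kept 317, 367 and 283 CPM, within the Control range but for the lowest. NNK_LPS tumours had 244, 237 and 236 CPM, and that change (-0.47 ± 0.15) was lost on leaving out any 1 of the 6 libraries (without Control 3, -0.34 with edgeR adjusted p = 0.146). Lama4, the α4 chain of vessel basement membranes, had 78.0, 79.9 and 91.4 CPM in Control, 54.0, 71.4 and 67.1 CPM in NNK and 53.8, 48.4 and 56.2 CPM in NNK_LPS. All tumour libraries lay below Control, by -0.37 ± 0.12 and -0.65 ± 0.12 on the log2 scale. The NNK call was lost on leaving out any Control library, NNK 1 or NNK 3 (without NNK 1, -0.25 with edgeR adjusted p = 0.223). Summed endothelial markers were 3334 to 3555 CPM in Control, 2481 to 2992 in NNK and 1539 to 2541 in NNK_LPS. In LPS lung they were 1437 to 1650 CPM, where Lama4 was not called, and their part in the Lama4 values was not tested.

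Lama5, the α5 chain of most adult basement membranes, had 247 to 285 CPM in Control and up to 396.5 CPM in I3C 1 and was called in no comparison. Lama1, the α1 chain of early embryos, rose in LPS from 1.67, 1.60 and 0.710 CPM to 3.01, 2.46 and 3.30 CPM (1.14 ± 0.41), a call lost without LPS 1, LPS 3 or Control 3 (without the last, 0.85 with edgeR adjusted p = 0.115).

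The beta and gamma chains changed less. Lamb3, which joins the α3 chain in the laminin of hemidesmosomes (chr1:193207699-193343878, plus strand), had 167, 176 and 201.5 CPM in Control, 276, 233 and 270.3 CPM in NNK, 186, 217 and 203 CPM in LPS and 298, 321 and 263 CPM in NNK_LPS. Both kinds of tumour lay above Control, by 0.52 ± 0.11 and 0.69 ± 0.11 on the log2 scale, while LPS lung overlapped with Control and was not called. Each tumour call was kept on leaving out any 1 library, in NNK only just (without Control 2, edgeR adjusted p = 0.0499).

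Lama3 and Lamb3 encode chains of 1 trimer, and their proportion differed between groups. On the per-kb scale the ratio of Lama3 to Lamb3 was 1.09 to 1.15 in Control, 0.644 to 0.969 in NNK, 0.453 to 0.568 in LPS and 0.454 to 0.551 in NNK_LPS. No library of the treated groups reached the Control range. The numerator fell in LPS lung and the denominator rose in NNK tumours. Lamb2, the β2 chain, fell in LPS from 245, 230.1 and 277 CPM to 180.1, 184 and 199 CPM (-0.42 ± 0.09). Lamb1, the β1 chain, fell in NNK_LPS from 123.5, 121 and 153 CPM to 92.1, 92.2 and 98.9 CPM (-0.49 ± 0.11). Lamc1, the γ1 chain of most laminins, and Lamc3, the γ3 chain, had 157 to 245 CPM and 11.3 to 23.6 CPM over the 21 libraries and were called in no comparison.

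**Figure D4:**
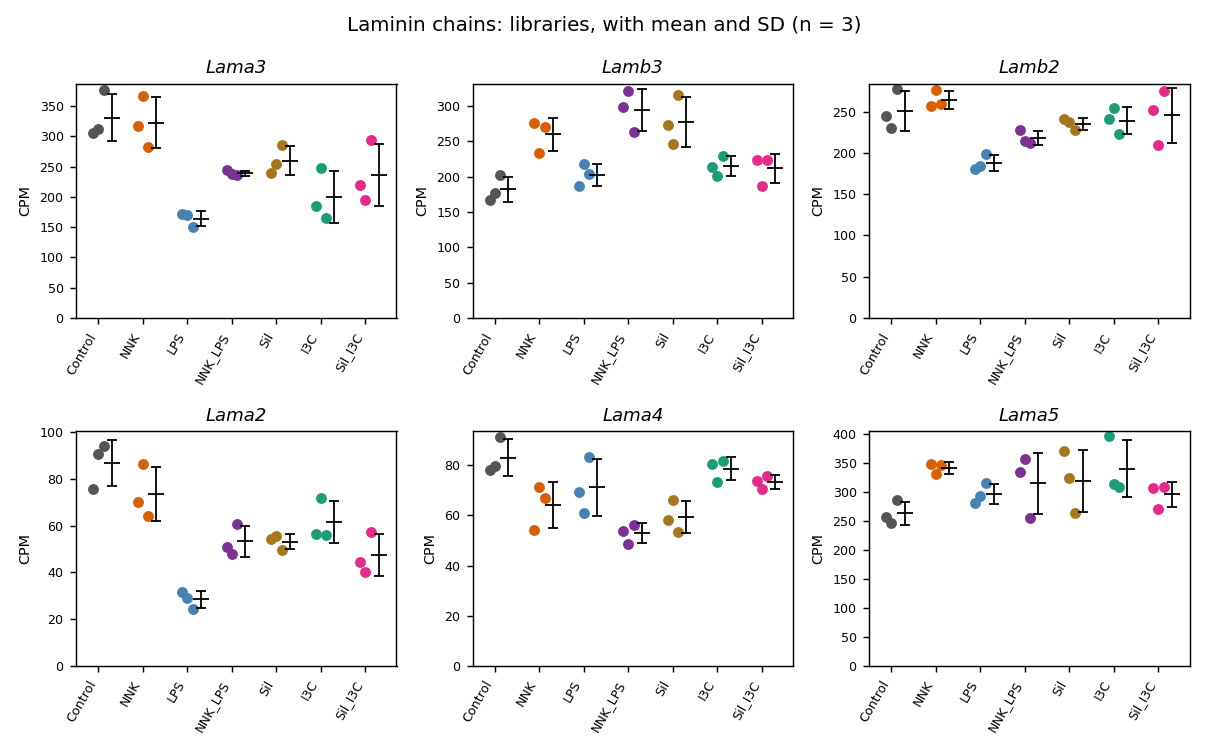
CPM of 6 laminin chains in each library (points, by group) with the mean and SD of 3 libraries. Lama3 and Lama2 are lowest in LPS (149.8 to 172 and 24.4 to 31.8 CPM), and Lamb3 lies above its Control range of 167 to 201.5 CPM in every NNK, NNK_LPS and Sil library.

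Each of the 14 calls between NNK_LPS tumours and Control kept its direction when a term for the library set was added, and none remained called. With that term Lama4 was at -1.01 ± 0.19 (edgeR adjusted p = 0.0515), Itga2 at -1.06 ± 0.23 (edgeR adjusted p = 0.0613), Itgb2 at 1.33 ± 0.31 (edgeR adjusted p = 0.0673), Lamb3 at 0.68 ± 0.21 (edgeR adjusted p = 0.139), Itga9 at 1.10 ± 0.34 (edgeR adjusted p = 0.133) and Itga8 at -0.45 ± 0.31 (edgeR adjusted p = 0.502). Of the other integrin genes, Itga1 was at -0.86 ± 0.37, Itga7 at 0.53 ± 0.26, Itgal at 0.89 ± 0.40, Itgb1 at -0.46 ± 0.17 and Itgb6 at -0.79 ± 0.47, with edgeR adjusted p from 0.203 (Itgb1) to 0.424 (Itgb6). Of the other laminin genes, Lama2 was at -0.39 ± 0.27 (edgeR adjusted p = 0.492), Lama3 at -0.28 ± 0.28 (edgeR adjusted p = 0.661) and Lamb1 at -0.73 ± 0.19 (edgeR adjusted p = 0.0859). Over all genes that fit called 24 in place of 3876. Set and group are joined through LPS 3 alone here and can hardly be told apart. Without a set term, the calls outside Itgb6 and Lama3 were kept on leaving out any 1 library.

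LPS was given to mice with and without NNK, which allows its difference in tumours to be set against that in lung. Between NNK_LPS and NNK tumours 1 member was called, Itga2, which was lower (-0.75 ± 0.13, edgeR adjusted p = 0.0409), where 0.0951% of all genes were called, 0.0634% higher and 0.0317% lower. DESeq2 called 4, adding Itga3, Lamb1 and Lamc1, all lower. At an unadjusted p under 0.05 edgeR had 12 of 36 members and 2517 of 15770 genes. The Itga2 call was lost on leaving out any NNK library, NNK_LPS 1 or NNK_LPS 2 (without NNK 2, -0.72 with edgeR adjusted p = 0.274), and with the set term (-0.81 ± 0.23, edgeR adjusted p = 0.698).

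The test of the difference itself, LPS in tumours minus LPS in lung, called 11 of the 36 members, 3 higher and 8 lower, where 25.1% of all genes were called, 10.7% higher and 14.4% lower. The largest of these in either direction were Itgam (-4.25 ± 0.54, edgeR adjusted p = 5.09e-05) and Itga8 (2.10 ± 0.26, edgeR adjusted p = 3.01e-05). Itgam had the means 18.2 and 285 CPM in lung without and with LPS, and 34.3 and 28.4 CPM in tumours. Itga8 had 345 and 61.4 CPM in lung and 228 and 174 CPM in tumours. Of the 4 leukocyte genes called, Itgb2 (-1.76 ± 0.24) and Itgal (-1.75 ± 0.30) rose in lung and were not called in tumours. Their log2 fold changes in tumours were 0.42 ± 0.17 and 0.17 ± 0.21, beside -0.27 ± 0.37 for Itgam. Itga5 differed by -1.56 ± 0.17, Itga7 by -0.93 ± 0.25, Itga3 by -0.79 ± 0.17 and Lama2 by 1.15 ± 0.21. These 8 were kept on leaving out any 1 of the 12 libraries and with the set term. The other 3 were not. Itga9 (-0.76 ± 0.27) was lost without 9 of the 12 libraries in turn (without NNK 1, -0.54 with edgeR adjusted p = 0.141), Itgb1 (0.38 ± 0.13) without 8 (without Control 2, 0.32 with edgeR adjusted p = 0.11) and Itgb7 (-1.65 ± 0.53) without 7 (without NNK 3, -1.25 with edgeR adjusted p = 0.105), and the last 2 also with the set term.

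**Figure D5:**
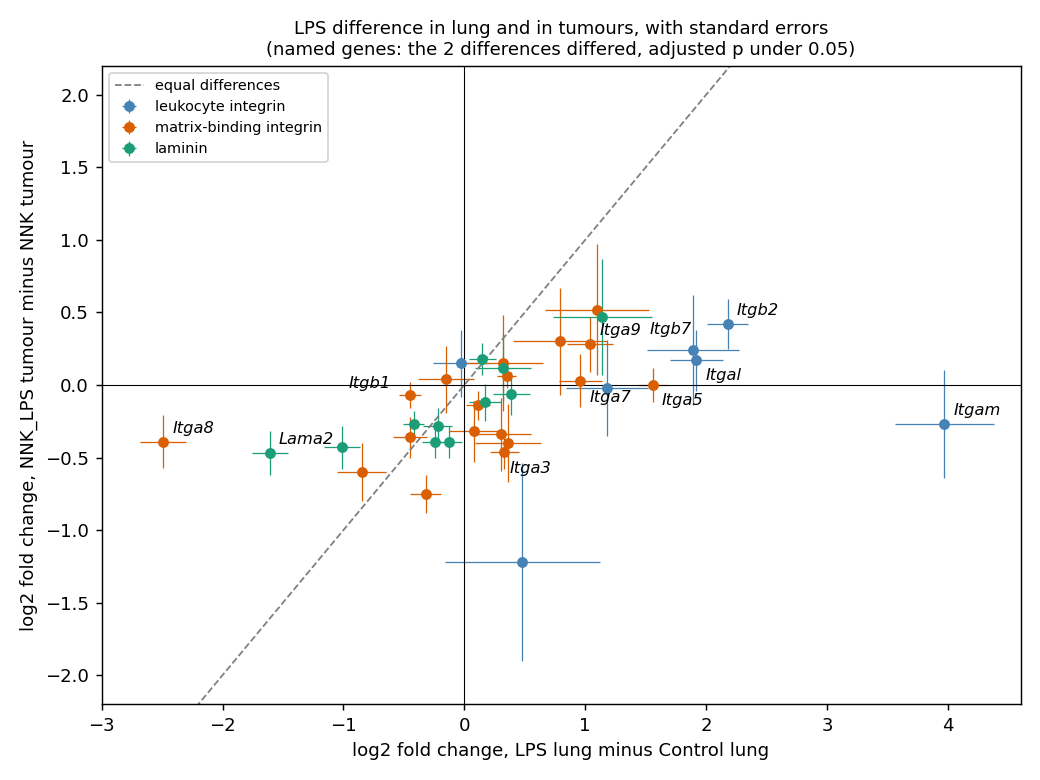
Each point is 1 of the 36 subunits, with the log2 fold change of LPS in lung on the horizontal axis and in tumours on the vertical axis, bars giving standard errors. Along the horizontal axis members range from -2.49 (Itga8) to 3.97 (Itgam), while along the vertical axis the lowest is Itgad at -1.22 ± 0.68 and the highest Itgb8 at 0.52 ± 0.45.

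NNK_LPS tumours were also set against LPS lung, both exposed to LPS. Of the 36 members 13 were called, 4 higher and 9 lower, where 38.2% of all genes were called, 17.3% higher and 20.9% lower. Itgam (log2 fold change -3.33 ± 0.39, edgeR adjusted p = 9.31e-06), Itga5 (-1.38 ± 0.12) and Itgb6 (-1.11 ± 0.25) were lower in tumours. Itga8 (1.50 ± 0.19), Lama2 (0.91 ± 0.15), Lama3 (0.54 ± 0.15) and Lamb3 (0.54 ± 0.11) were higher in tumours. LPS 3, the LPS library of the same set as NNK_LPS, had 313 CPM of Itgam, 122 of Itga5, 134 of Itgb6, 47.1 of Itga8 and 24.4 of Lama2, in each case on the LPS side of every NNK_LPS library. With the set term 12 of the 13 were called. Itgb7 was lost there, and was also lost without LPS 3 or NNK_LPS 2 (without the last, -0.97 with edgeR adjusted p = 0.0823), as was Lama4 without LPS 3 (-0.29, edgeR adjusted p = 0.0707).

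Silibinin in the diet was followed by no call. Against NNK_LPS tumours, Sil tumours had 0 of 36 members called by edgeR or DESeq2, where 0% of all genes were called in either direction. At an unadjusted p under 0.05 there was 1 member, Itgav, and 578 of 15770 genes. Itgav had 90.8, 97.6 and 75.7 CPM in NNK_LPS and 80.2, 80.6 and 72.1 CPM in Sil, which overlapped. Over the members the log2 fold change ran from -0.29 ± 0.39 (Lama1) to 0.95 ± 0.69 (Itgad), with standard errors from 0.08 to 0.69, so a change of moderate size in the low genes was not detectable. Sil 3 had the lowest level of its group in all 5 of Itgam, Itgal, Itgb2, Itgb7 and Itga4. The same held for Control 2, I3C 2 and Sil_I3C 3 in their groups.

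Indole-3-carbinol was followed by 3 calls, 1 higher and 2 lower, where 2.02% of all genes were called, 1.22% higher and 0.793% lower. Lama4 had 53.8, 48.4 and 56.2 CPM in NNK_LPS and 80.6, 73.3 and 81.9 CPM in I3C (log2 fold change 0.57 ± 0.12, edgeR adjusted p = 0.0262). Lamb3 had 298, 321 and 263 CPM against 214, 201 and 229 CPM (-0.45 ± 0.11, edgeR adjusted p = 0.0425). The groups did not overlap in Lama4 or Lamb3. I3C 1, the I3C library of the same set as NNK_LPS, had 80.6 CPM of Lama4 and 214 of Lamb3.

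Both calls were lost without NNK_LPS 2 (Lama4 0.49 with edgeR adjusted p = 0.175, Lamb3 -0.41 with 0.228), I3C 1 or I3C 3, and Lamb3 also without I3C 2. With the set term the log2 fold changes were 0.61 ± 0.15 for Lama4 and -0.46 ± 0.17 for Lamb3, neither called. Among members not called, Itgb6 had its lowest group mean in I3C, at 33.6, 40.6 and 42.5 CPM (-0.69 ± 0.26 against NNK_LPS, edgeR adjusted p = 0.14). Ptprc was 219 to 281.5 CPM in I3C against 172 to 209 CPM in NNK_LPS, and Itgam was 72.2, 44.3 and 49.1 CPM (0.96 ± 0.37, edgeR adjusted p = 0.154). Summed heart muscle markers were 339 to 487 CPM in I3C and 76.2 to 142 CPM in NNK_LPS. Of these, 6 of 6 were called higher, where 1.22% of all genes were. Smooth muscle markers were 499.9 to 581 and 181 to 432 CPM, with a median log2 fold change of 0.70. Of those, 5 of 5 had an unadjusted p under 0.05 and none was called. Summed endothelial markers were 1227 to 2161 CPM in I3C and 1539 to 2541 CPM in NNK_LPS, with 0 of 6 called. Summed alveolar type 2 markers were lower, at 30380 to 32110 CPM in I3C and 42270 to 57820 CPM in NNK_LPS, with 3 of 5 called lower. The part of these cell types in the I3C values was not tested.

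Both agents together were followed by 2 calls, 0 higher and 2 lower, where 1.36% of all genes were called, 0.552% higher and 0.805% lower. Itga9 had 173, 142 and 96.1 CPM in NNK_LPS and 82.0, 72.1 and 72.1 CPM in Sil_I3C (-0.86 ± 0.19, edgeR adjusted p = 0.032), still above the 47.4 to 54.7 CPM of Control. Lamb3 had 224, 187 and 223 CPM in Sil_I3C (-0.47 ± 0.11, edgeR adjusted p = 0.0388). Neither gene overlapped between the groups. Summed alveolar type 2 markers were 30820 to 31750 CPM in Sil_I3C, with 1 of 5 called lower, and their part was not tested. Both calls were lost on leaving out NNK_LPS 1, NNK_LPS 2 or any Sil_I3C library (without NNK_LPS 2, Itga9 at -0.85 with edgeR adjusted p = 0.152 and Lamb3 -0.42 with 0.24), and with the set term, while 4 members were called without NNK_LPS 3. No Sil_I3C library shared a set with NNK_LPS, so set and diet are linked only through the I3C libraries. The 3 diet comparisons share the NNK_LPS libraries, and Lamb3 read against the same 3 values in each.

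Other genes of the same structures were followed in lists, without a term for the library set. Between NNK_LPS and Control, set and group are joined through LPS 3 alone, and no subunit call there was kept with that term. Among 13 other basement membrane genes, LPS lung had 1 called higher and 8 lower, where 25.3% and 24.7% of all genes were. Apart from Npnt, Col4a3 (-0.96 ± 0.13) and Col4a4 (-0.69 ± 0.09), chains of the specialised collagen IV network, and Ntn4 (-1.53 ± 0.23), a laminin-related netrin, fell. NNK_LPS tumours had 0 higher and 7 lower (12.0% and 12.6% of all genes), and NNK tumours had Npnt alone lower (6.63% of all genes). Of 5 genes of hemidesmosomes or of the desmosomes between cells, 4 fell in LPS lung, where 24.7% of all genes did. Summed alveolar type 1 markers were 5549 to 6141 CPM in Control, 3418 to 3757 in LPS, 4382 to 5006 in NNK and 3926 to 4970 in NNK_LPS. Of those 5 markers, 4 were called lower and 1 higher in LPS lung, 1 lower in NNK and 2 lower in NNK_LPS, and their part in these lists was not tested. Col17a1, a transmembrane collagen of hemidesmosomes, had 6.60, 6.45 and 8.26 CPM in Control and 0.932, 0.751 and 1.35 CPM in LPS (-2.80 ± 0.43). It also fell in NNK_LPS, to 1.13, 0.656 and 1.76 CPM (-2.56 ± 0.41), and had 3.81, 4.51 and 5.72 CPM in NNK, where it was not called.

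Inside the cell, integrins work through adaptors and regulators, which can raise or lower their activity and need not bind the integrin itself. Of 18 such genes 6 rose and 9 fell in LPS lung, beside 25.3% and 24.7% of all genes. Fermt3, the kindlin of blood cells, which activates β2 integrins, rose from 22.4, 19.9 and 36.1 CPM to 91.1, 83.3 and 80.4 CPM (1.70 ± 0.21). Fermt2, the kindlin of adherent cells, fell from 365, 389 and 314 CPM to 179, 161.5 and 174 CPM (-1.05 ± 0.12), and Tln2, a talin, fell by 1.22 ± 0.14 log2 units. In the same libraries Itgb2 rose and Itgb1 fell. NNK tumours had 3 higher and 2 lower (6.46% and 6.63% of all genes), and NNK_LPS tumours 5 and 5 (12.0% and 12.6%).

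Of 13 ligand and counter-receptor genes 12 were tested. In LPS lung 6 rose and 3 fell, beside 25.3% and 24.7% of all genes. Icam1, the endothelial and epithelial ligand of LFA-1 and Mac-1, rose from 576, 613 and 632 CPM to 1199, 1023 and 1214 CPM (0.92 ± 0.13). Vtn, the gene of the αv ligand vitronectin, fell from 10.6, 12.3 and 9.81 CPM to 3.08, 2.25 and 3.17 CPM (-1.94 ± 0.22). Icam1 in NNK_LPS tumours, at 545, 611 and 639 CPM, overlapped with Control and was not called. NNK tumours had 2 higher (Tgfb1, 0.51 ± 0.12, and Fn1, the fibronectin gene, 0.66 ± 0.18) and 2 lower (Postn, -0.53 ± 0.14, and Vcam1, -0.80 ± 0.22), beside 6.46% and 6.63% of all genes.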

How the data were processed

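The authors deposited 1 table of whole-number counts per gene symbol for 21 libraries, prepared with the TruSeq RNA kit per the labels' protocols. Per the submitters' processing notes the build was mm10. Aligner, counting tool, annotation and strand setting: not given in the sources used here. Reads of genes that overlap on either strand therefore cannot be told apart. Depth and its range stand in the report, and it limits precision for members of a few CPM or less.

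Groups follow the treatment labels and replicate numbers the labels' descriptions. Counts went into edgeR 4.0.16 (R 4.3.3) with TMM scaling. Of 38924 symbols, 16756 had no count, and filterByExpr with a minimum count of 10 left 15770. All 7 groups entered 1 robust quasi-likelihood fit (14 residual degrees of freedom, common biological coefficient of variation 0.168), from which each contrast was tested with Benjamini-Hochberg adjustment over all genes tested. The standard error is the log2 fold change over the square root of F. The procedure was tested on simulated data.

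The members, lists and markers were chosen with earlier results of these data known. Members called in a contrast among Control, NNK, LPS and NNK_LPS with a group mean of at least 1 CPM, or in a diet contrast, are named, the others are given by range, 1 member counted in the totals is not reported here, and at most 4 genes of each further list are named, by adjusted p. Gene positions, exon lengths and overlaps come from GENCODE vM21 on GRCm38 and promoters from RefSeq (GRCm38.p6). Alternatives were RLE size factors, no filter, DESeq2 1.42.0, a fit to the contrast's own groups, a block for replicate number, a term for library set (or 1 set alone) and leaving out each library.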

Additional observations from a re-analysis of the deposited data

Results flagged for a closer look

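For 11 subunits the difference made by LPS was not the same in tumours (NNK_LPS minus NNK) as in lung (LPS minus Control), by edgeR's test of the difference between the differences at an adjusted p under 0.05. Each value is the log2 difference in tumours minus that in lung. For 8 subunits it was negative, with Itgam at -4.25, Itgb2 at -1.76, Itgal at -1.75, Itgb7 at -1.65, Itga5 at -1.56, Itga7 at -0.93, Itga3 at -0.79 and Itga9 at -0.76. For 3 it was positive, with Itga8 at 2.10, Lama2 at 1.15 and Itgb1 at 0.38. The calls of Itga9, Itgb1 and Itgb7 were lost without 9, 8 and 7 of the 12 libraries in turn. NNK and NNK_LPS share no library set.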

How the results depend on the processing

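Of the 73 member changes called, 800 of 950 values under the other settings stayed called, 150 were lost and 0 turned direction. Fitting the compared groups alone left 0 of the 3 I3C calls, 0 of the 2 Sil_I3C calls and 0 of the 1 call between NNK_LPS and NNK. A term for library set gave 0 members in each of these and 0 of 14 between NNK_LPS and Control, and DESeq2 gave 4 between NNK_LPS and NNK. In LPS against Control the set term gave 19 calls in place of 21, and Itga2, Itga3 and Itgb8 were among those lost. The cause was not tested. Leaving out 1 library in turn gave 2 to 8 calls for NNK, 17 to 19 for LPS and 12 to 16 for NNK_LPS, each against Control, 0 to 1 for NNK_LPS against NNK, 12 to 18 against LPS, 8 to 12 for the difference of LPS differences, 0 to 4 for I3C, 0 to 4 for Sil_I3C and 0 to 0 for Sil. Whether the replicate numbers of the labels pair the samples was described but not tested. Over 63 same-numbered pairs the correlation of deviations from the group means ran from -0.419 to 0.524. Its median was 0.0258, beside -0.0142 for pairs of other numbers, and 11 of 21 libraries correlated best with their own number. With the replicate block the members called were 8 in NNK, 20 in LPS (Itga2 was lost) and 14 in NNK_LPS against Control, 1 against NNK, 13 against LPS, 11 for the difference, 0 in Sil, 3 in I3C and 3 in Sil_I3C. Depth limits Itgad, Itgb8, Lama1 and Itga10, with standard errors of 0.54 to 0.94 on the log2 scale for the difference of LPS differences.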
